A study of Mus musculus with 4 samples.

Results

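The spliceosome and splicing factor families were described in large pre-B cells of the mouse after transduction with 1 of 2 hairpins. Members were the rows of the deposited count tables whose gene symbol starts with Srsf, Hnrnp, Snrp, Sf3a, Sf3b or Prpf, which gave 62 genes of 23420 rows. They comprised 11 Srsf, 18 Hnrnp, 12 Snrp, 8 Sf3a or Sf3b and 13 Prpf genes. The test covered 60 of them, since Srsf12 and Snrpn had no count in any library. The annotation lists 3 further protein-coding genes of these families, Hnrnpll, Hnrnpdl and Sf3b6, whose rows stand under the older symbols Hnrpll, Hnrpdl and 0610009D07Rik and which the symbol rule therefore did not take.

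All 4 libraries came from cells of genotype Irf4/8-/-, which lack these interferon regulatory factors and are held at the dividing large pre-B stage, grown with OP9 stromal feeder cells and interleukin 7 (10 ng/ml). The cells received a retrovirus that carried GFP and a hairpin, directed either at luciferase mRNA as a control (shLuc, 2 libraries) or at Myb mRNA (shMyb, 2 libraries), and GFP+ cells were sorted after 72 hours. Each hairpin was delivered in duplicate, each time to its own set of 12 wells. No source names a second line or animal, and p-values cover the variation of repeated transduction alone. Fewer cells of a kind and less RNA per cell cannot be told apart in such bulk libraries.

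Splicing removes introns from precursor mRNA. The spliceosome is built from small nuclear ribonucleoproteins (snRNPs), each a small nuclear RNA with a ring of Sm proteins and particle-specific proteins, and from non-snRNP factors such as the Prp19 complex. SR proteins (Srsf genes) bind exons and mostly favour their inclusion, whereas hnRNP proteins (Hnrnp genes) coat nascent RNA and often oppose it. The SF3a and SF3b subunits of the U2 snRNP hold the branch site. Many SR and hnRNP genes limit their own level through exons or introns that lead to decay of the transcript, which counts per gene cannot separate from productive mRNA.

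The targeted gene was examined first. Myb (chromosome 10, 21124935 to 21160984, GRCm38) was at 616 and 600.1 CPM (counts per 1000000, scaled by TMM) in shLuc and at 617 and 639 CPM in the libraries labelled shMyb. It was therefore not lower where its hairpin was used (log2 fold change 0.05, 95% interval -0.03 to 0.12, edgeR adjusted p = 0.283), and it was called higher when scaled by library totals alone, without TMM (0.11), or after a correction that removes the trend of fold change on expression level (0.15). Directions below compare libraries by label, with no sign of a lower Myb transcript behind them. Library totals ran from 36573743 to 44682954 counts. Summed CPM of 9 pre-B markers was 5126 and 5191 for shLuc, 5128 and 5050.0 for shMyb, with 4 called lower and 4 higher. Of 9 stromal markers, 1 was called lower and 2 higher, with sums of 51.2 to 66.8 CPM in shLuc and 49.4 to 56.3 CPM in shMyb. Of 9 myeloid markers, 4 were called higher (sums of 3.47 to 4.40 CPM against 7.52 to 9.13 CPM), with Elane at 0 in all libraries. Of 8 T cell markers, 7 had a row and 1 was called higher (9.18 to 9.46 CPM against 14.6 CPM in both), with Cd4 and Cd8a at 0. No erythroid marker passed the count filter. The part of these cells in the differences below was not tested.

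Transcripts of splicing factors were mostly lower in the libraries labelled shMyb, by modest amounts. Of 60 tested members, 41 fell, 5 rose and 14 did not pass the test (edgeR quasi-likelihood test, adjusted p below 0.05 over 12610 genes). Over all tested genes 31.7% were called lower and 30.6% higher, and 62.2% were called in all, so calls were common. Members are abundant genes, and 58 of the 60 averaged at least 50 CPM. Among the 4706 tested genes at or above that level 71.2% were called, 45.1% lower and 26.1% higher, against 69.0% and 8.62% of the 58 members. Median log2 fold changes were -0.16 for the members, -0.06 over tested genes of at least 50 CPM and 0.0048 over all tested genes. The groups did not overlap in 55 of 60 members, 49 of them lower and 6 higher, and in 82.1% of all tested genes (41.2% lower, 41% higher). Members named below for the size of their change were picked among those without overlap, so their separation is no added support. With library totals 33 members were lower and 8 higher, against 24.6% and 37% of all tested genes. With the trend correction 34 were lower and 12 higher, against 33.4% and 27.8% of all tested genes.

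**Figure D1:**
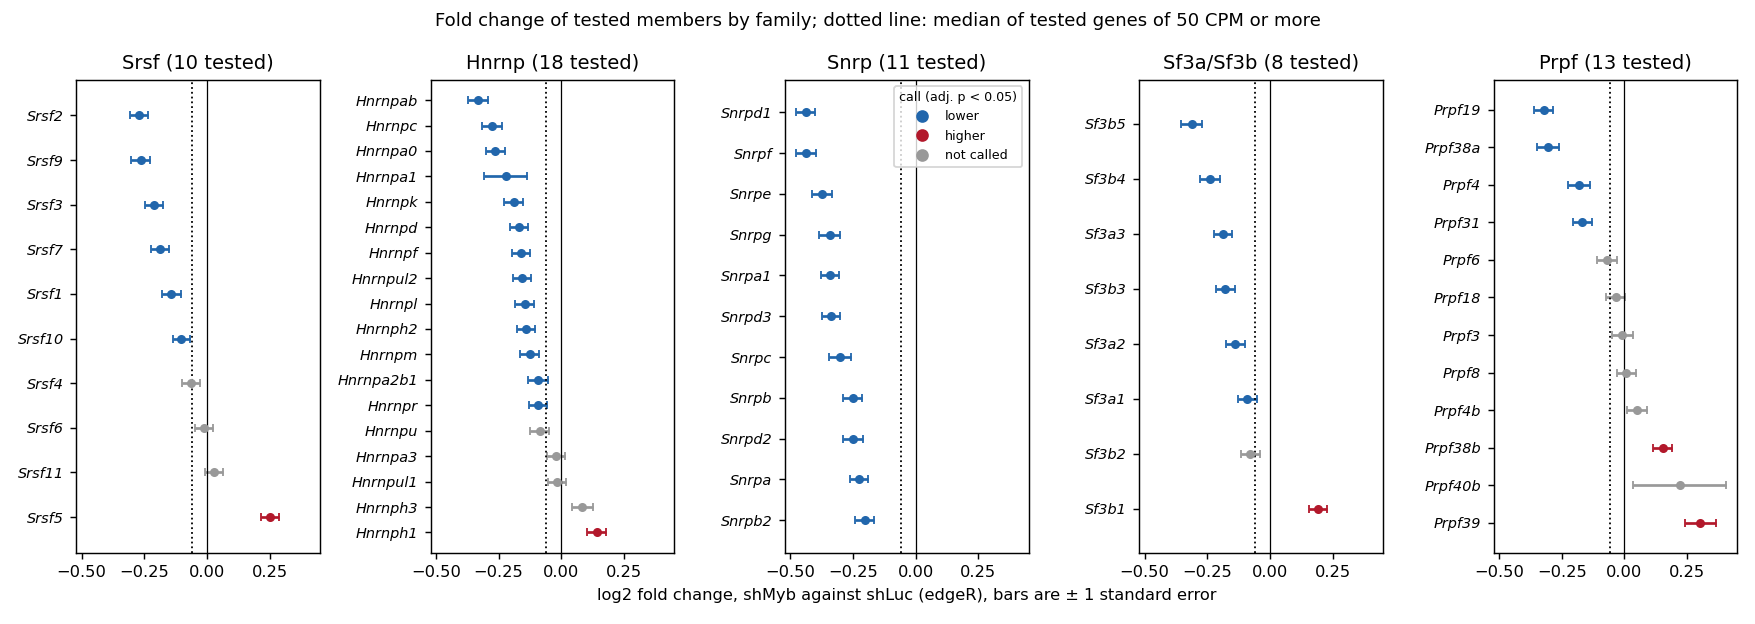
Log2 fold change (x axis, shMyb against shLuc, bars ± 1 standard error) of tested members (y axis, all but 1 Prpf gene) in 5 panels by family, coloured by call, with a dotted line at the median of tested genes of at least 50 CPM (-0.06). All 11 Snrp genes lie left of 0, while the other families each hold 1 or 2 genes that were called higher.

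The Snrp genes encode snRNP proteins, and every tested member of this family fell. All 11 tested genes were called lower, with log2 fold changes from -0.44 to -0.20 and a median of -0.34. All 11 averaged at least 50 CPM, a level at which 45.1% of tested genes were called lower (median -0.06). In each of the 11 both shMyb libraries lay below both shLuc libraries, as they did in 41.2% of all tested genes. The groups did not overlap, in either direction, in 82.1% of all tested genes. Of all counts the family took 0.151% and 0.154% under the shLuc label, 0.127% and 0.130% under the shMyb label. The 7 tested Sm ring genes had a median of -0.34 and the 4 genes of U1 and U2 proteins a median of -0.26.

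Snrpd1, which encodes the Sm ring protein D1 (chromosome 18, 10617775 to 10642079), was at 179.9 and 189 CPM with shLuc, 134 and 139 CPM with shMyb. The difference was -0.44 on the log2 scale (SE 0.04, adjusted p = 4.3e-10), and the gap between groups exceeded the gap between duplicates. Snrpf, the gene of Sm protein F (chromosome 10, 93583029 to 93589706), had 116 and 117 CPM in shLuc against 83.9 and 88.0 CPM in shMyb (-0.44, SE 0.04, adjusted p = 5.4e-10). Both shMyb values lay below both shLuc values, which was a condition for naming Snrpd1 and Snrpf. Of its annotated exon bases, 65.9% overlap Ccdc38 on the opposite strand, whose own row fell from 14.4 ± 0.709 to 3.04 ± 0.0129 CPM (SD, n = 2 each), and the part of that overlap in the Snrpf count was not tested.

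Snrpe, the gene of Sm protein E (chromosome 1, 133603871 to 133610291), was at 121 and 124 CPM under shLuc and at 92.1 and 97.0 CPM under shMyb (-0.37, SE 0.04). Snrpg, for Sm protein G (chromosome 6, 86371304 to 86379328), was at 82.4 and 84.6 CPM against 63.2 and 68.5 CPM (-0.34, SE 0.04). Snrpb, for Sm proteins B and B' (chromosome 2, 130171414 to 130179403), had the highest level of the family per kilobase of annotated exon, 159 CPM per kb in shLuc. Its libraries stood at 314.1 and 313.9 CPM in shLuc against 270.0 and 257 CPM in shMyb (-0.25, SE 0.04). Neither Snrpe, Snrpg nor Snrpb had overlapping groups, which for Snrpe and Snrpg was a condition for naming them. Snrpd3 (-0.34) and Snrpd2 (-0.25) completed the ring.

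Among the genes of particle-specific proteins, the U2 gene Snrpa1 fell by 0.34 and the U1 gene Snrpc by 0.30 on the log2 scale. The U1 gene Snrpa (-0.23) and the U2 gene Snrpb2 (-0.20) were the smallest differences of the family. The Snrpb2 call ended after a GC and length correction (-0.06, adjusted p = 0.133), which also brought the family median to -0.21 with 10 of 11 lower. Snrpn encodes SmN, which stands in for protein B in some tissues, chiefly the brain. It had 0 counts in every library, which allows up to 0.0688 to 0.0799 CPM (3 counts per library, counting error only). Its exons overlap those of Snurf on the same strand, whose row was also at 0, and how reads that fit both genes were counted is not known here.

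**Figure D2:**
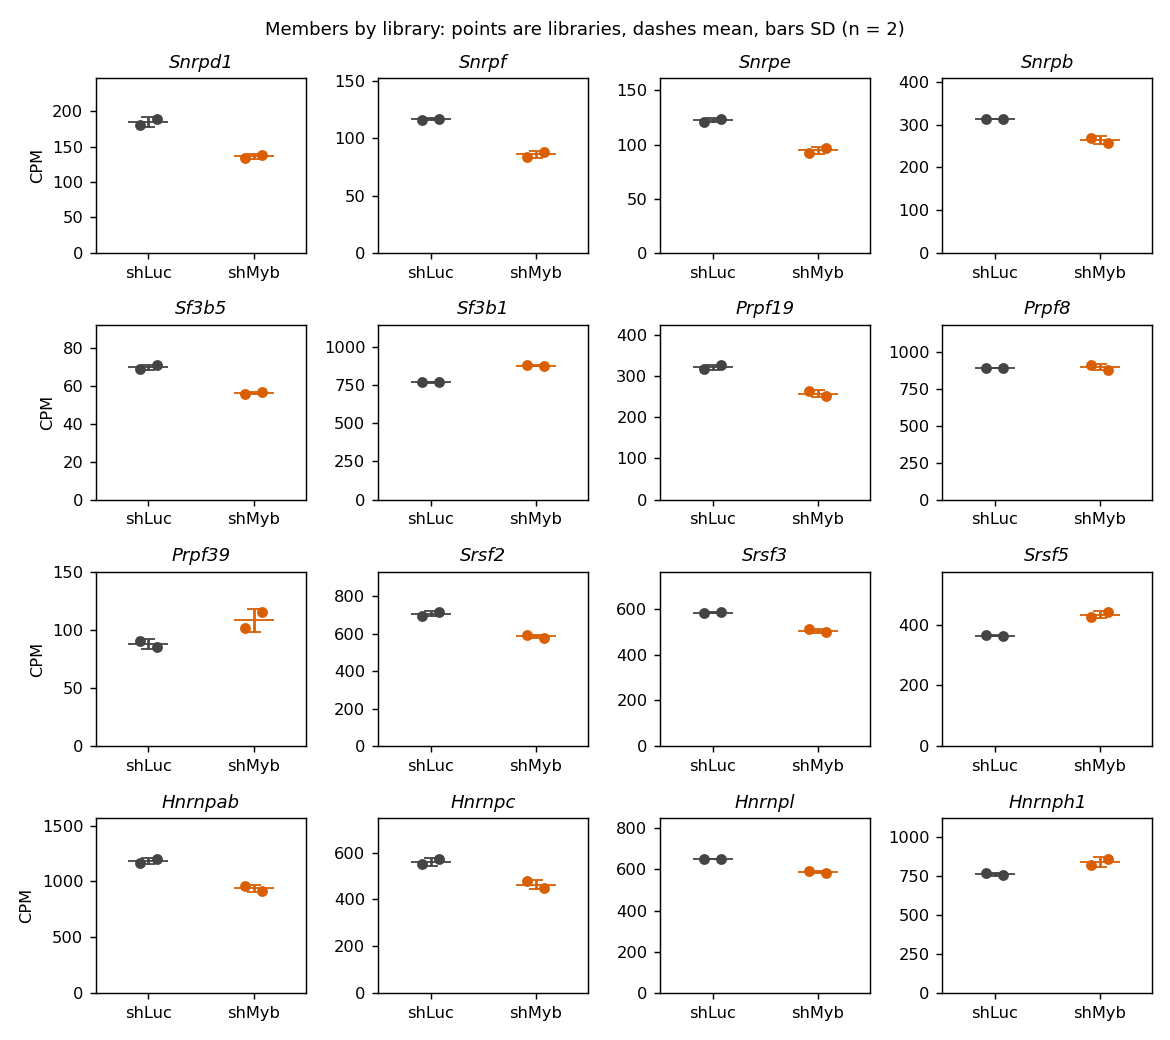
CPM (y axis, from 0) of 16 members in the 2 shLuc and 2 shMyb libraries, with points for libraries, a dash for the mean and a bar for the SD (n = 2). Snrpd1, Snrpf and Snrpe show the widest relative gaps downward, whereas Sf3b1, Prpf39, Srsf5 and Hnrnph1 were higher in both shMyb libraries.

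Most SF3a and SF3b genes were lower. Of 8 tested genes 6 fell (75%), Sf3b1 rose (12.5%) and Sf3b2 did not pass, with a median of -0.16. All 8 averaged at least 50 CPM, a level at which 45.1% of tested genes were called lower and 26.1% higher. With library totals 4 were lower and 1 higher (24.6% and 37% of all tested genes). With the trend correction 5 were lower and 1 higher (33.4% and 27.8% of all tested genes). Sf3b5, a small SF3b subunit gene (chromosome 10, 13005343 to 13009183), was at 69.1 and 71.0 CPM with shLuc, 56.1 and 56.7 CPM with shMyb (-0.31, SE 0.04, adjusted p = 5.5e-07). Sf3b4, an RNA-binding subunit gene (chromosome 3, 96172332 to 96177564), was at 85.7 and 87.9 CPM against 74.4 and 72.5 CPM (-0.24, SE 0.04). Sf3a3, an SF3a subunit gene (chromosome 4, 124714776 to 124732460), was at 180.1 and 181 CPM against 160.3 and 157 CPM (-0.19, SE 0.04). In these 3 genes every shMyb library was below every shLuc library, which was a condition for naming them.

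Sf3b1, the gene of the largest SF3b subunit, which contacts the branch site helix (chromosome 1, 54985169 to 55027481), went the other way. It was at 771 and 767 CPM under shLuc and at 879 and 876 CPM under shMyb (0.19, SE 0.04, adjusted p = 8.1e-05). The duplicates lay close together and the groups far apart. Sf3b3 and Sf3a2 fell by 0.18 and 0.14, the latter without a call under library totals (-0.08). Sf3a1 was called lower (-0.09), a call that ended in 6 alternative fits. Among them were library totals (-0.03), the trend correction (-0.05), a filter of 1 CPM in 2 libraries (-0.08) and a replicate block (-0.09). The others left out shLuc replicate 2 (-0.09) or shMyb replicate 2 (-0.07). Sf3b2, which had the highest level of the family per length (73.0 CPM per kb in shLuc), was at 496 and 499.8 CPM against 479.9 and 463 CPM (-0.08, 95% interval -0.15 to -0.0033, adjusted p = 0.0644). It was called lower in 5 alternative fits, among them the one without shMyb replicate 1 (-0.11, adjusted p = 0.038), and the sign turned with the trend correction (0.0078). Sf3b6, counted under 0610009D07Rik and outside the rule, was at 99.8 and 103 CPM against 80.5 and 81.0 CPM (-0.33, SE 0.04).

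The Prpf genes showed the most mixed pattern. They are named after yeast pre-RNA processing factors and belong to different particles. Of 13 tested genes 5 fell (38.5%), 2 rose (15.4%) and 6 did not pass. Of them 12 averaged at least 50 CPM, and tested genes at that level were 45.1% lower and 26.1% higher, with a median of -0.06. The Prpf median was -0.03, and 0.03 with library totals alone (0.07 over all tested genes). With library totals 4 were lower and 3 higher (24.6% and 37% of all tested genes). With the trend correction 5 were lower and 4 higher (33.4% and 27.8% of all tested genes). Prpf19, the ubiquitin ligase at the core of the Prp19 complex (chromosome 19, 10895231 to 10909559), was at 317 and 326 CPM in shLuc against 263 and 251 CPM in shMyb (-0.32, SE 0.04, adjusted p = 5.1e-08). Prpf38a, a component of the assembled spliceosome before activation (chromosome 4, 108563172 to 108579336), was at 72.9 and 73.2 CPM against 61.1 and 57.3 CPM (-0.30, SE 0.04). The U4/U6 gene Prpf4 (chromosome 4, 62408797 to 62426990) was at 72.3 and 73.3 CPM against 67.1 and 61.4 CPM (-0.18, SE 0.04). Prpf31, also of U4/U6, fell by 0.17.

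Prpf39, a U1-associated factor (chromosome 12, 65036333 to 65063386), had the largest rise of all members, from 90.8 and 85.0 CPM to 101 and 116 CPM (0.30, SE 0.06, adjusted p = 0.00284). The spread within each group was wide for this gene, at 4.11 and 10.0 CPM (SD, n = 2 each). The groups did not overlap, which was a condition for naming it. Prpf38b rose from 190.0 and 185 CPM to 202 and 215 CPM (0.15, SE 0.04). Prpf8, the large U5 protein at the catalytic centre (chromosome 11, 75486816 to 75509449), had the highest level of the family, 119 CPM per kb in shLuc. Its values were 886 and 888 CPM with shLuc, 906 and 878 CPM with shMyb, so the groups overlapped (0.0080, 95% interval -0.07 to 0.08, adjusted p = 0.865). The sign turned negative in 6 of 15 alternative fits, and it was called higher with the trend correction. Prpf6 (-0.07), Prpf18 (-0.03), Prpf3 (-0.0086), the kinase gene Prpf4b (0.05) and Prpf40b (0.22, on 2.25 ± 0.222 CPM in shLuc, SD, n = 2) did not pass. Prpf6 was called lower without shLuc replicate 1 (-0.11, adjusted p = 0.0458) or shMyb replicate 1 (-0.12, adjusted p = 0.02), and Prpf4b higher with library totals (0.11).

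Of the SR protein genes, 6 of 10 tested fell (60%), Srsf5 rose (10%) and 3 did not pass, with a median of -0.12. All 10 averaged at least 50 CPM, and tested genes at that level were 45.1% lower and 26.1% higher, with a median of -0.06. With library totals 5 were lower and 2 higher (24.6% and 37% of all tested genes). With the trend correction 4 were lower and 2 higher (33.4% and 27.8% of all tested genes). Srsf2, the gene of SC35 (chromosome 11, 116849901 to 116853094), had the highest level of the family per length, 239 CPM per kb in shLuc. It was at 697 and 715 CPM under shLuc and at 592 and 579 CPM under shMyb (-0.27, SE 0.04, adjusted p = 7.4e-07). Srsf9 (chromosome 5, 115327177 to 115333080) was at 110.8 and 111 CPM against 92.9 and 92.2 CPM (-0.26, SE 0.04). Srsf3, for the smallest SR protein (chromosome 17, 29032628 to 29043373), was at 582 and 586 CPM against 510.3 and 498 CPM (-0.21, SE 0.04). Duplicates of these 3 genes lay close together and apart from the other group, a separation required of genes named for the size of their change.

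Srsf1, the founding SR protein gene (chromosome 11, 88047373 to 88053755), was at 952 and 958 CPM in shLuc against 881 and 849.8 CPM in shMyb (-0.14, SE 0.04, adjusted p = 0.00206). The call ended with the trend correction (-0.02, adjusted p = 0.621). Srsf7 fell by 0.19, a call that ended with the GC and length correction (-0.06). Srsf10 was called lower (-0.10), and that call ended in 5 alternative fits. These were library totals (-0.04), the trend correction (-0.05), the GC and length correction (-0.06) and a replicate block (-0.10). The fit without shMyb replicate 2 (-0.09) was the other.

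Srsf5 (chromosome 12, 80945504 to 80950507) stood apart in direction. It was at 365 and 363 CPM with shLuc, 424 and 442 CPM with shMyb, and rose by 0.25 (SE 0.04, adjusted p = 2.0e-06). Its closest relatives in sequence did not pass, Srsf6 at -0.01 (95% interval -0.09 to 0.06) and Srsf4 at -0.06 (-0.14 to 0.01). Srsf6 was called higher with the trend correction (0.07). Srsf11 was at 0.03 with overlapping groups and was called higher with library totals (0.09). Srsf12 had 0 counts in every library, within the same limit as Snrpn.

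The Hnrnp genes, the family with the most members and counts, took 1.20% of all counts in both shLuc libraries, against 1.14% and 1.15% with shMyb. Of 18 tested genes 13 fell (72.2%), Hnrnph1 rose (5.56%) and 4 did not pass, with a median of -0.14. Of them 17 averaged at least 50 CPM, and tested genes at that level were 45.1% lower and 26.1% higher, with a median of -0.06. With library totals 9 were lower and 2 higher, with the trend correction 9 and 5, and with the GC and length correction 11 and 2. Over all tested genes these settings gave 24.6% and 37%, 33.4% and 27.8%, and 30.9% and 30.1%. Hnrnpab, for an A/B-type protein that binds both DNA and RNA (chromosome 11, 51600100 to 51606847), had the highest level of all members per length, 425 CPM per kb in shLuc. It was at 1162 and 1204 CPM under shLuc and at 962 and 917 CPM under shMyb (-0.33, SE 0.04, adjusted p = 7.0e-08). The difference between groups was several times that between duplicates, and 29.1% of its exon bases overlap Phykpl on the opposite strand, which stands here under its older symbol Agxt2l2 at 10.2 CPM in both shLuc libraries and 10.9 and 11.2 CPM in shMyb.

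Hnrnpc, whose protein packages nascent RNA and competes with U2AF at uridine tracts (chromosome 14, 52073377 to 52104028), was at 549.8 and 575 CPM against 477 and 451 CPM (-0.28, SE 0.04). Hnrnpa0 (chromosome 13, 58125879 to 58128556) was at 695 and 677 CPM against 572 and 571 CPM (-0.26, SE 0.04). Hnrnpl, a repressor of CD45 exons in lymphocytes (chromosome 7, 28808541 to 28822266), was at 649.8 and 652 CPM against 592 and 584 CPM (-0.15, SE 0.04, adjusted p = 0.00114), a call that ended with the trend correction (-0.05). Hnrnpc and Hnrnpa0 were named on the condition that their groups did not overlap, and those of Hnrnpl did not overlap either. Hnrnpk, Hnrnpd, Hnrnpf, Hnrnpul2 and Hnrnph2 fell by 0.19, 0.17, 0.16, 0.16 and 0.14, of which Hnrnpf and Hnrnph2 were not called after the GC and length correction (-0.07 and -0.05). Hnrnpm fell by 0.13 and was not called with library totals (-0.06) or the trend correction (-0.02).

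Hnrnpa1 gave an uncertain value. It was at 13.7 and 12.8 CPM in shLuc against 10.2 and 12.5 CPM in shMyb (-0.22, SE 0.09, adjusted p = 0.0316), or 4.19 CPM per kb in shLuc against 349 CPM per kb for its relative Hnrnpa2b1. Near-identical processed copies of Hnrnpa1 exist, and reads that fit several places may have been lost in counting. The pseudogene annotated as Hnrnpa1l2-ps2 has a row, Gm5803, with 4 to 7 counts per library. The call was lost when shLuc replicate 1 was left out (-0.19, adjusted p = 0.0994), without shMyb replicate 1 (-0.09, adjusted p = 0.425) and with DESeq2 (adjusted p = 0.174), library totals (-0.16) and the GC and length correction (-0.09).

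The remaining hnRNP genes gave small differences. Hnrnpa2b1, an exon-skipping regulator, was at 2296 and 2301 CPM with shLuc, 2121 and 2187 CPM with shMyb (-0.09, adjusted p = 0.0406), but it was called higher with the trend correction (0.10, adjusted p = 0.00954). Leaving out shLuc replicate 1 ended the call (-0.12, adjusted p = 0.0666), as did leaving out shLuc replicate 2 (-0.10, adjusted p = 0.126) or shMyb replicate 1 (-0.08, adjusted p = 0.205), so no direction is drawn for it although it is among the 13 counted lower. Hnrnpu, at -0.09 (adjusted p = 0.0519), was called lower in 5 alternative fits, among them DESeq2 (-0.10, adjusted p = 0.00738) and limma-voom (-0.09, adjusted p = 0.0327), and was called higher with the trend correction (0.08, adjusted p = 0.0185). Hnrnpr was called lower (-0.09), a call that ended in 4 alternative fits. These were library totals (-0.03), the trend correction (-0.05), a replicate block (-0.09) and the fit without shMyb replicate 1 (-0.08). Hnrnpa3 (-0.02) and Hnrnpul1 (-0.02) did not pass, and both changed sign with library totals and with the trend correction. Hnrnpul1 was called lower with the GC and length correction (-0.15) and higher with the trend correction (0.09). Hnrnph1, which binds G-rich elements, rose from 765 and 753 CPM to 816 and 858 CPM (0.14, SE 0.04, adjusted p = 0.00248). That call ended without shMyb replicate 2 (0.10, adjusted p = 0.0576). Its relative Hnrnph3 was at 0.08 (adjusted p = 0.0816) and was called with library totals (0.15) and without shMyb replicate 1 (0.11, adjusted p = 0.0423).

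Hnrnpll (row Hnrpll, chromosome 17, 80029487 to 80062334), whose protein drives skipping of CD45 exons and acts in plasma cell differentiation, was at 31.8 and 34.7 CPM under shLuc and at 9.65 and 10.7 CPM under shMyb. It fell by 1.71 on the log2 scale (SE 0.07, adjusted p = 1.1e-16). No member reached that size, since the members ran from -0.44 to 0.30. Hnrnpdl (row Hnrpdl) did not pass.

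Within the members, fold change went with exon length. Spearman's rho between the length of annotated exons and the log2 fold change was 0.58 across the 60 tested genes and 0.40 across the 49 genes without the Snrp family. These points share 4 libraries, and the lengths are those of all annotated exons rather than of the transcripts present. The corresponding values were 0.19 and -0.03 for mean CPM and -0.15 and -0.23 for GC content. None of these values was computed over all tested genes, so the relations are not shown to be particular to the members. The Snrp genes had the shortest exon length by family, with a median of 2618 bases, and the Hnrnp genes the longest, 5898 bases.

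**Figure D3:**
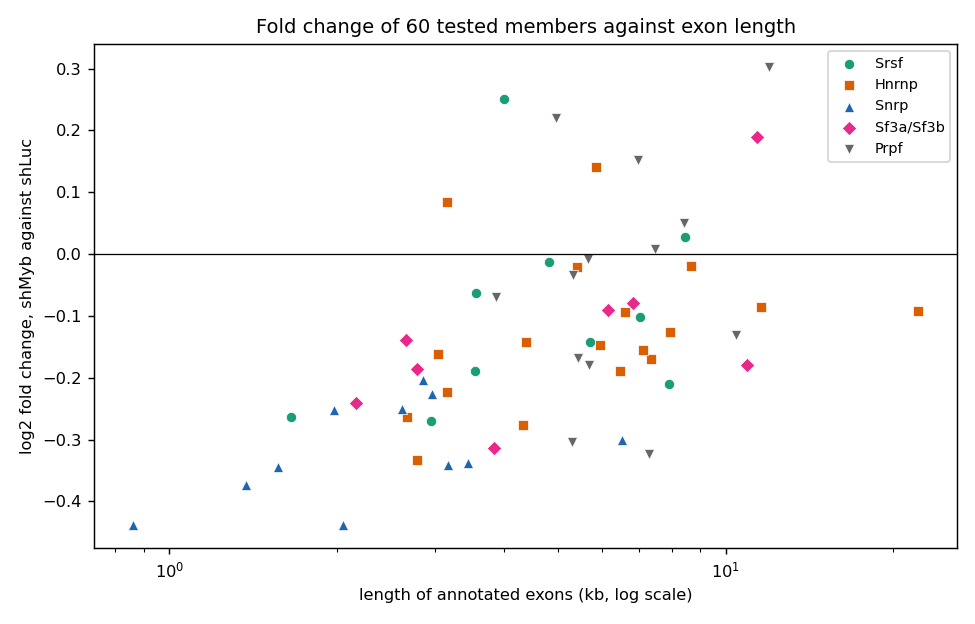
Log2 fold change (y axis, shMyb against shLuc) of the 60 tested members against the length of annotated exons (x axis, kb, log scale), by family. Short genes, among them most Snrp genes, lie lowest, and the genes above 0 have at least 3151 bases of exon.

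Promoters are shown for 2 of the genes that fell and 4 of the 5 that rose, since the hairpin was directed at a DNA-binding factor. The sequences come from RefSeq (GRCm38.p6), run 5′ to 3′ on the gene's strand, and are the stretch of at most 200 bases that ends before the first annotated exon. Capitals mark the motifs searched on both strands, CACGTG, to which MYC and MAX bind, and CAACNG and TAACNG, which hold the core recognised by MYB proteins. The 2 MYB motifs differ in their first letter and cannot match the same letters on 1 strand. The Snrpf and Prpf38b stretches hold none of the 3 motifs.
Snrpf, chr10:93589771-93589908, minus strand: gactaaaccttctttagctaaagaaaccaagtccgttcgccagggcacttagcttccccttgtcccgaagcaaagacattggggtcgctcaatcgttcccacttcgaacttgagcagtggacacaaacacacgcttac
Snrpd2, chr7:19149588-19149721, plus strand: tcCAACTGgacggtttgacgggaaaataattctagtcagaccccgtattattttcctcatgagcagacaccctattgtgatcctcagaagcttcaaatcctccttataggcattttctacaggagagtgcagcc
Sf3b1, chr1:55027482-55027681, minus strand: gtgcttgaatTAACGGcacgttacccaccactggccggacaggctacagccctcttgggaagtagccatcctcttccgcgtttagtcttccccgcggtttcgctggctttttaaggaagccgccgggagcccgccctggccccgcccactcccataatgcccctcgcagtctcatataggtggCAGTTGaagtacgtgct
Hnrnph1, chr11:50376790-50376989, plus strand: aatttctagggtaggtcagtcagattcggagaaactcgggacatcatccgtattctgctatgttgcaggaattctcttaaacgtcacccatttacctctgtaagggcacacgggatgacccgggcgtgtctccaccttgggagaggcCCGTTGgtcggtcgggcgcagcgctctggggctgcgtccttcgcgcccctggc
Prpf39, chr12:65036133-65036332, plus strand: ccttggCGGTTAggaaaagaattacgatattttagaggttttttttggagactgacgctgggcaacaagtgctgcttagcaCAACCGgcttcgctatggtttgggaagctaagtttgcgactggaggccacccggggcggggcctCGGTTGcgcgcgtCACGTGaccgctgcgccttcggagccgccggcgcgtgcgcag
Prpf38b, chr3:108911730-108911929, minus strand: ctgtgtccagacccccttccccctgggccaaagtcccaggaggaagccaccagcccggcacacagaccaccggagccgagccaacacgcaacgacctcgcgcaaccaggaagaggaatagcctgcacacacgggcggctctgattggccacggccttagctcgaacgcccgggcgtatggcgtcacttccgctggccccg

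In windows of 300 bases (250 before and 50 after a start), 55 of the 62 members had 75 promoters in the table. CACGTG occurred in 14.7% of these windows against 7.15% of all 32851 windows, CAACNG in 41.3% against 35% and TAACNG in 20% against 23.3%. Among the 14 Snrp windows, 2 held CACGTG, both of Snrpa, and 4 (28.6%) held a MYB motif, against 49.7% of all windows. All 9 windows of the 5 genes that rose held CAACNG, of which 5 windows belong to Hnrnph1 and partly overlap. CAACNG was in 31% of the 42 windows of members that fell and in 47.4% of the 19 windows of members not called. A link between motif and direction was not tested. Of 5 Hnrnph1 stretches 1 is shown, and 2 of the 5 hold no motif. The matches of Prpf38b lie outside its printed stretch, and Srsf5 had no stretch free of exon to print. A match describes the letters and not a bound site.

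The other splicing genes were set beside the members through 9 lists of 149 genes, of which 146 were tested. Together 66 fell and 24 rose (45.2% and 16.4%), with a median of -0.06. Of these genes 116 averaged at least 50 CPM, and all tested genes at that level had nearly the same share called lower and median (45.1% and -0.06). Lists of snRNP building blocks and their assembly were mostly lower. Of 15 genes of the SMN complex and snRNP assembly, which load the Sm ring onto small nuclear RNA, 13 fell and none rose (median -0.30). Wdr77 and Prmt5, the complex that methylates Sm proteins, fell by 0.46 and 0.40, and Gemin5, which selects the RNA, by 0.36. Of 7 tested Lsm genes, whose ring sits on U6 RNA or acts in mRNA decay, 6 fell (median -0.27), with Lsm2 at -0.48, Lsm7 at -0.46 and Lsm3 at -0.36. Of 14 snRNP genes whose names fall outside the rule 9 fell and none rose (median -0.15), led by Nhp2l1, a U4 protein shared with box C/D particles (-0.60), Phf5a of SF3b (-0.32) and Snrnp40 of U5 (-0.27).

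The branch site and helicase further lists had shares called lower close to the 45.1% of tested genes of at least 50 CPM. Of 13 branch site and 3′ splice site genes 6 fell (46.2%) and 2 rose (median -0.05), among them Rbm17 (-0.40), U2af1 (-0.30) and the helicase gene Dhx15 (-0.20). Of 24 Prp19-complex, step-factor and helicase genes 10 fell (41.7%) and none rose (median -0.06), such as Bcas2 (-0.33), Ppil1 (-0.26) and Bud31 (-0.25). Of 9 exon junction genes 5 fell (median -0.19), with Magoh at -0.46 and Eif4a3 at -0.31, and Acin1 rose (0.21), a call that ended with the GC and length correction (0.05).

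Of 22 tested kinases of SR proteins and SR-related genes, 10 rose (45.5%), 3 fell and 9 did not pass (median 0.10). Among all tested genes of at least 50 CPM, a level that all 22 reached, 26.1% were called higher. The CLK kinases phosphorylate SR proteins. Clk1 rose from 185 and 178 CPM to 237 and 261 CPM (0.46, SE 0.04), Clk2 by 0.38 and Clk4 by 0.37. Clk3 rose by 0.12, whereas the SR kinase genes Srpk1 (-0.02) and Srpk2 (-0.03) did not pass. In the minor spliceosome, which removes a rare class of introns, 3 of 8 rose (37.5%) and 2 fell (25%). None of the 8 averaged 50 CPM, and over all tested genes 30.6% were called higher and 31.7% lower, so these shares are near those of all genes. Those that rose were Snrnp48 (0.23), Rnpc3 (0.19) and Scnm1 (0.20). The Rnpc3 and Scnm1 calls ended with DESeq2 and without shMyb replicate 2 (0.10 and 0.13), and that of Scnm1 also without shLuc replicate 2 (0.15). Of 34 tested genes of other splicing regulators 12 fell and 8 rose (median -0.0055), with Rbm5 at 0.50, Syncrip at -0.35 and Hnrnpll as given above.

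**Figure D4:**
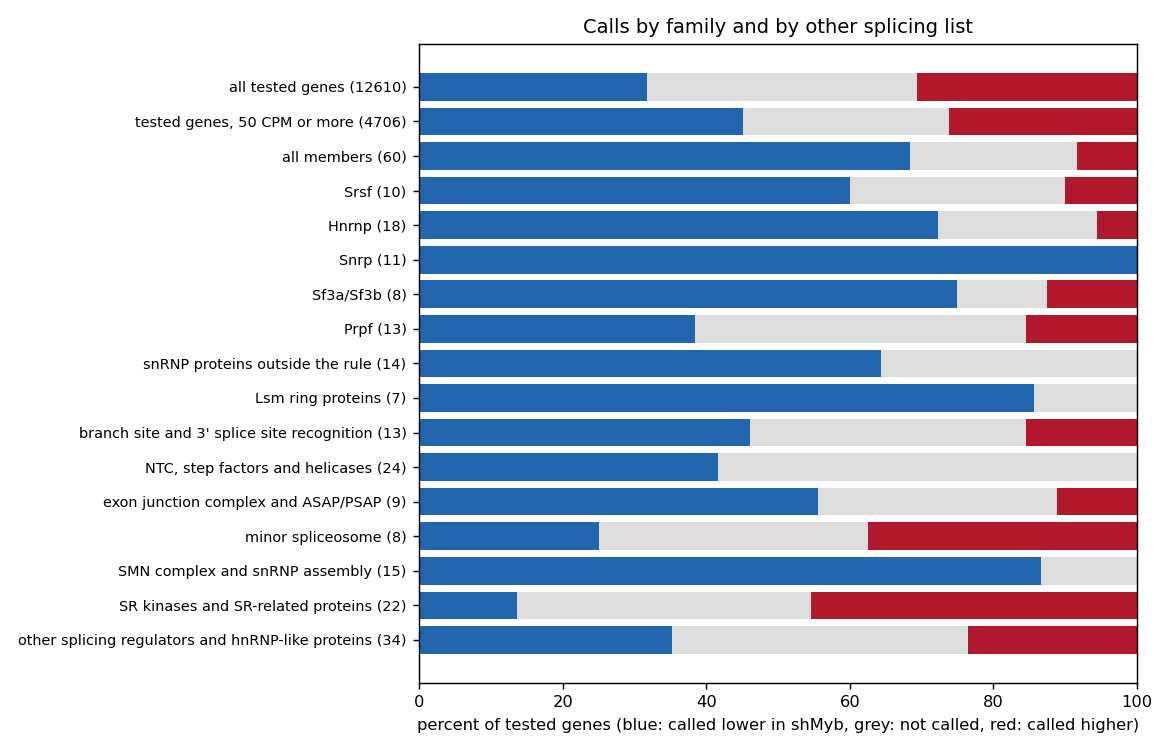
Share of tested genes (x axis, percent, number tested in brackets) called lower (blue), not called (grey) or called higher (red) in shMyb for all tested genes, the 5 families and 9 other splicing lists. The Snrp bar is blue throughout (11 of 11), and the SR kinase and SR-related list is the one with 10 of 22 in red.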

How the data were processed

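The deposited files, 1 for each of 4 libraries, hold unnormalized read counts by gene. FastQC, STAR, HTSeq, DESeq2 and mm10 are listed in the submitters' processing notes. The annotation, strand setting and filters were not given in the sources used here. The kit keeps strand, per the labels' protocols, yet without the strand setting reads of overlapping genes on opposite strands may not be separated. Counts were tested with edgeR 4.0.16 (R 4.3.3): filterByExpr with a minimum count of 10 (12610 genes kept), TMM scaling, estimateDisp, glmQLFit with robust=TRUE and glmQLFTest on group alone. Adjustment (Benjamini-Hochberg) covered every tested gene, with calls made below 0.05. CPM uses TMM-scaled library sizes, and levels between genes are CPM per kilobase of annotated exon. Positions, lengths and overlaps come from GENCODE M21 on GRCm38 (mm10), 1-based, and promoters from RefSeq. Duplicate libraries differed by more than counting noise (chi-square per degree of freedom 3.81 and 4.24). All values rest on 36573743 to 44682954 counts per library, and tested members had at least 89 counts (Prpf40b) or 398 (Hnrnpa1) and otherwise at least 2012.

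The members, lists and tests were chosen with earlier results of these data known. The naming rule took, in each family, up to 4 called members with the largest change (no overlap of groups, at least 10 CPM), the member with the highest level per length and 11 fixed genes, then up to 3 genes with the smallest p per other list. On simulated counts for 12610 genes, with 200 genes of at least 50 CPM changed, the test recovered 16% of those changed 1.1-fold and 100% at 1.25-fold, and called 5 of 12410 unchanged genes. Far fewer genes were changed there than the 62.2% called in the data, which makes its adjusted p stricter, so these rates do not carry over. In the data, differences of about -0.09 were called for Hnrnpr and not called for Hnrnpu. How often differences near 1.1-fold are missed was not tested. Alternatives were RLE scaling, library totals, 2 other low-count filters, robust=FALSE, DESeq2 1.42.0, limma-voom (limma 3.58.1), a loess correction of the expression trend, a correction for GC content and length centred on 0, a replicate block, leaving out each library and an adjusted p below 0.01. Protein sequences were not used here. The values of 1 Prpf member are not reported here, though it counts in the totals.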

Additional observations from a re-analysis of the deposited data

How the results depend on the processing

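Of 46 called members, 31 kept their call and direction in all 15 alternative fits. The Snrp family had 11 of 11 lower in each of them except the GC and length correction (10). With library totals 33 of the 41 lower and 5 of the 5 higher calls remained, and with the trend correction 34 and 5. With library totals alone 8 members were called higher, among them 2 Srsf, 2 Hnrnp and 3 Prpf genes, against 37% of all tested genes. The Prpf median was then 0.0284 (0.0674 over all tested genes), and Myb was called higher (0.11, adjusted p = 0.0109). With the trend correction 12 members were called higher, among them 2 Srsf, 5 Hnrnp and 4 Prpf genes, against 27.8% of all tested genes. Myb was called higher there too (0.15, adjusted p = 6.3e-04). Hnrnp genes called higher numbered 2 with the 1 CPM filter, with the GC and length correction and with the crossed replicate block, and from 0 to 2 when 1 library was left out. The cause of these changes was not tested.

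Members near 0 changed sign. With the trend correction Hnrnpa2b1 was at 0.0951 (adjusted p = 0.00954), Hnrnpu at 0.0819 (0.0185), Hnrnpul1 at 0.0851 (0.0188), Srsf6 at 0.0731 (0.0425), Hnrnpa3 at 0.0129, Prpf18 at 0.0011, Prpf3 at 0.0259, Sf3b2 at 0.0078 and Prpf40b at -0.0733. With library totals Hnrnpa3 was at 0.0421, Hnrnpul1 at 0.0440, Prpf18 at 0.0284, Prpf3 at 0.0542 and Srsf6 at 0.0502. With the GC and length correction Hnrnpa3 was at 0.0354, Prpf18 at 0.0240, Prpf3 at 0.0165, Srsf6 at 0.0639 and Prpf8 at -0.0560. Prpf3 was at 0.0034 with the 1 CPM filter, and Prpf8 at -0.0077 without a low-count filter and at -0.0035 with DESeq2. Leaving out 1 library gave Prpf3 from -0.0878 to 0.0424, Prpf8 from -0.0206 to 0.0295, Prpf4b from -0.0013 to 0.0939 and Srsf11 from -0.0077 to 0.0438. In these fits the lone library of a group is assumed to vary like the other group.

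Replicate numbers name separate sets of wells, and the main test did not pair libraries by number. Deviations of same-numbered libraries had a correlation of -0.19 across genes. It rests on a single difference per group, so it can neither show nor exclude a pairing. With the replicate block 37 members were lower and 5 higher. With the crossed replicate block, added after seeing the data, 45 were lower and 6 higher. Depth limits the 2 members at 0 counts and Prpf40b, and 2 libraries per group limit every small difference.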
